A study of Mus musculus with 36 samples.

Results

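In regenerating mouse liver, 10 genes of the Hippo pathway were followed from the signalling kinases to the genes that the pathway controls. They were the coactivators Yap1 and Wwtr1, the DNA-binding partner Tead1, the kinases Lats1 and Lats2, and the target genes Cyr61, Ctgf, Ankrd1, Amotl2 and Ajuba. The genes were taken by name, with no measured value in the rule, but the list was drawn up with earlier results of these data known. Each of the 10 symbols matched 1 row among 21955 in the count tables, and all 10 passed the filter on low counts that left 13436 genes for testing. Cyr61 and Ctgf are listed in newer annotations as Ccn1 and Ccn2.

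Livers came from C57BL/6JN mice, an inbred laboratory strain. Young mice were 4 months old and old mice 18 months old, and the old mice were named as the treated group. Each age was sampled before regeneration and at time points labelled 48, 72, 96, 120 and 240, with 3 libraries in each of the 12 groups. Neither the unit of the time labels nor the way regeneration was started was stated in the sources used here, and no mutation, transgene or drug was named for any group. Total RNA from frozen tissue had been depleted of ribosomal RNA before library construction.

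The Hippo pathway is a chain of protein kinases best known for limiting organ size. When it is active, the LATS kinases phosphorylate YAP (from Yap1) and its relative TAZ (from Wwtr1), which are then kept in the cytoplasm or degraded. When it is inactive, YAP and TAZ enter the nucleus, bind TEAD proteins on DNA and switch on genes such as Cyr61 and Ctgf, and in liver their forced activity is known to enlarge the organ. RNA levels do not show this phosphorylation step, so the values below describe transcripts and not the activity of the kinases.

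Promoter sequence was printed for Cyr61 and Ajuba because they were the target genes whose RNA changed with regeneration, and they changed in opposite directions. Each stretch holds the 250 bases before the first annotated start site, read 5′ to 3′ on the gene's own strand from RefSeq on GRCm38.p6. Both genes lie on the minus strand. The window of Cyr61 is chr3:145649986-145650235 and that of Ajuba is chr14:54577662-54577911, and both are upstream of the transcribed region. Capitals mark CATTCC, the reverse complement of GGAATG, a core sequence that TEAD proteins are known to bind.
Cyr61: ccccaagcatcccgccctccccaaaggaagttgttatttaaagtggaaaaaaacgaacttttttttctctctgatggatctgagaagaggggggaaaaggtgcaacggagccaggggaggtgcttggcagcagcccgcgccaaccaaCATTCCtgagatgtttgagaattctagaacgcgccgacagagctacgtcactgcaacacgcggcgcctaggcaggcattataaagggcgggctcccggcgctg
Ajuba: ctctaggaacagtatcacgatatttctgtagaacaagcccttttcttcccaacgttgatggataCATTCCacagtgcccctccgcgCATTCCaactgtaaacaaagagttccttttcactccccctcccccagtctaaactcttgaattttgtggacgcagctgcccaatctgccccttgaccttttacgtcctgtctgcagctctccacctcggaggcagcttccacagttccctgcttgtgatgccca
The Cyr61 window held 1 match, which began at -103 where -1 is the base before the start site. The Ajuba window held 2, which began at -186 and -164. Of the 10 members, 8 were found in the promoter table, and GGAATG or its reverse complement was present in the window of 6 of them: Yap1, Wwtr1, Cyr61, Ankrd1, Amotl2 and Ajuba. It was present in 12.6% of all 32851 windows of this length. A match of 6 letters is a description of the sequence and does not show binding, and the genes with a match included both rising and falling members.

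Library totals ranged from 2328233 to 6034446 counts (median 4439170). Levels are given as CPM, counts scaled to a common library total, with totals adjusted by the TMM method, and do not correct for gene length. Changes are log2 fold changes with their standard error (SE) from edgeR's quasi-likelihood test, and a gene was called at a Benjamini-Hochberg adjusted p under 0.05 over all 13436 genes. The summed level of 8 hepatocyte markers was 36200 to 62690 CPM, and none was at 0 in any group. The labels did not mention that 12 libraries, 1 in every group, carried RNA of Y-linked genes at 177 to 321 CPM while the other 24 had at most 0.212 CPM. In bulk liver RNA, fewer cells of a type and less RNA per cell cannot be told apart, which holds for every level below.

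**Figure D1:**
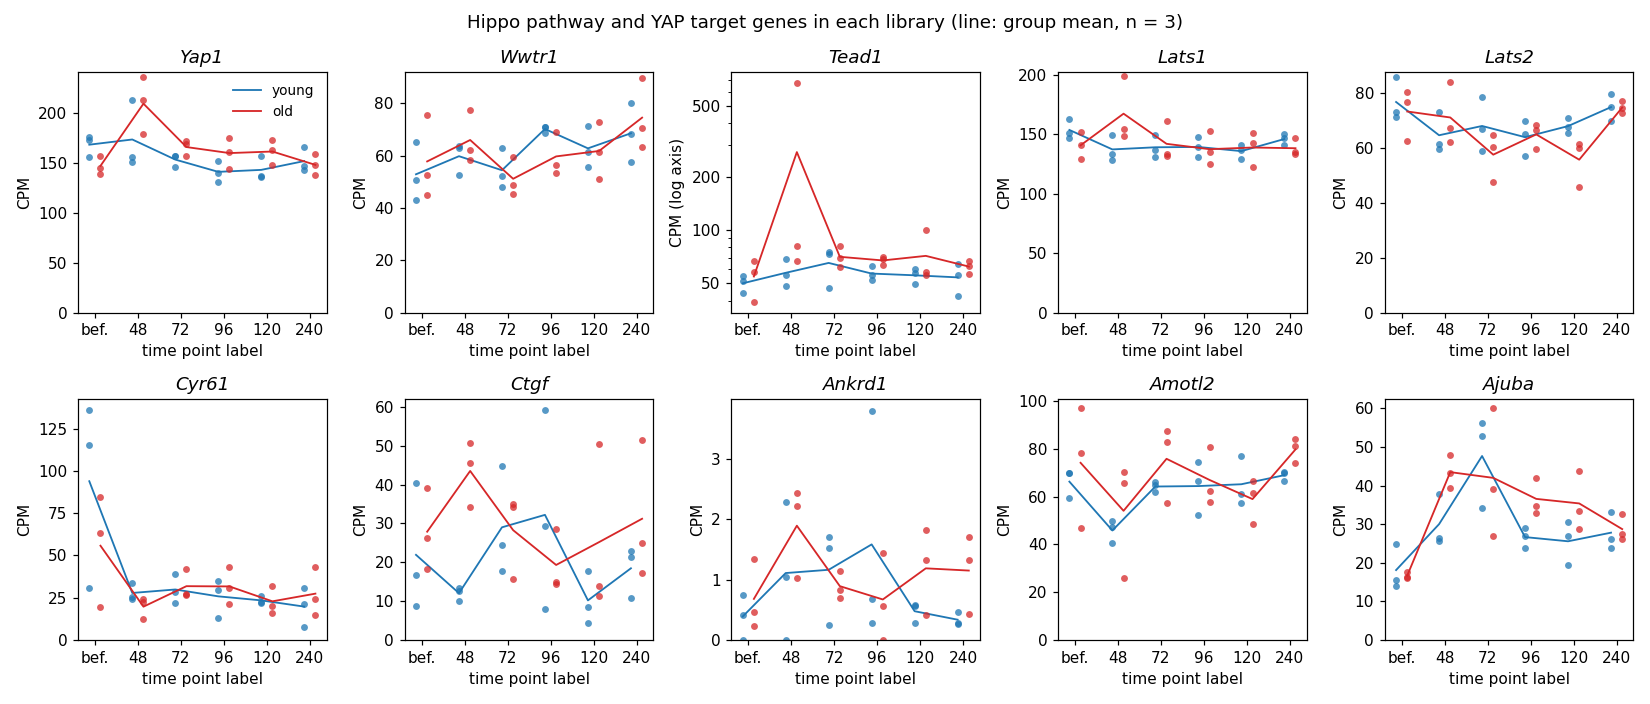
Level of each of the 10 genes in all 36 libraries, in CPM on a linear axis from 0 (Tead1 on a log axis), by time point label; points are single libraries, lines join the means of 3 libraries, young in blue and old in red. Cyr61 was highest before regeneration, Ajuba was lowest before regeneration, and a single old library at 48 stood at 676 CPM for Tead1.

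The members called over regeneration were Ajuba, Cyr61, Yap1 and Tead1. In young livers, 4 of 50 tests (10 genes at 5 later time points against before) were called. They were a fall of Cyr61 and a rise of Ajuba, each at 48 and at 72. In old livers 7 of 50 tests were called. Ajuba rose at 48, 72, 96 and 120, while Cyr61 fell and Yap1 and Tead1 rose at 48. All later time points of an age were compared with the same 3 libraries from before regeneration, so their changes are not independent of each other.

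The counts of members called are set here beside the shares of all genes called, and no test compared the 2. In young livers at 48, 2 of 10 members were called, where 22.1% of all genes were called (12.2% higher and 9.88% lower). At 72 the count was 2 of 10 against 17.5% of all genes (9.26% higher and 8.23% lower). At 96, 120 and 240, edgeR called 0 members against 1.44%, 0.595% and 0.26% of all genes. At an unadjusted p under 0.05, 4, 1 and 2 members passed at these 3 time points, where 15.4%, 12.1% and 5.21% of all genes did, and DESeq2 called 1 at each, which was Cyr61. In old livers at 48, 4 of 10 were called against 24.3% of all genes, with 3 members higher where 12.3% of all genes were higher and 1 lower where 12.1% were lower. In old livers the count was 1 of 10 at 72, 96 and 120, against 12.6%, 6.85% and 4.05% of all genes. The 1 member was Ajuba each time, and it was higher where 6.71%, 3.77% and 1.96% of all genes were higher and 5.92%, 3.08% and 2.08% were lower. At 240 in old livers edgeR and DESeq2 called 0 members, and 0.141% of all genes were called. At an unadjusted p under 0.05, 2 members passed (Ajuba and Cyr61), as did 7.81% of all genes. The median log2 fold change of the members was -0.06 in young and 0.38 in old livers at 48, and lay between -0.10 and 0.12 at all other time points.

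**Figure D2:**
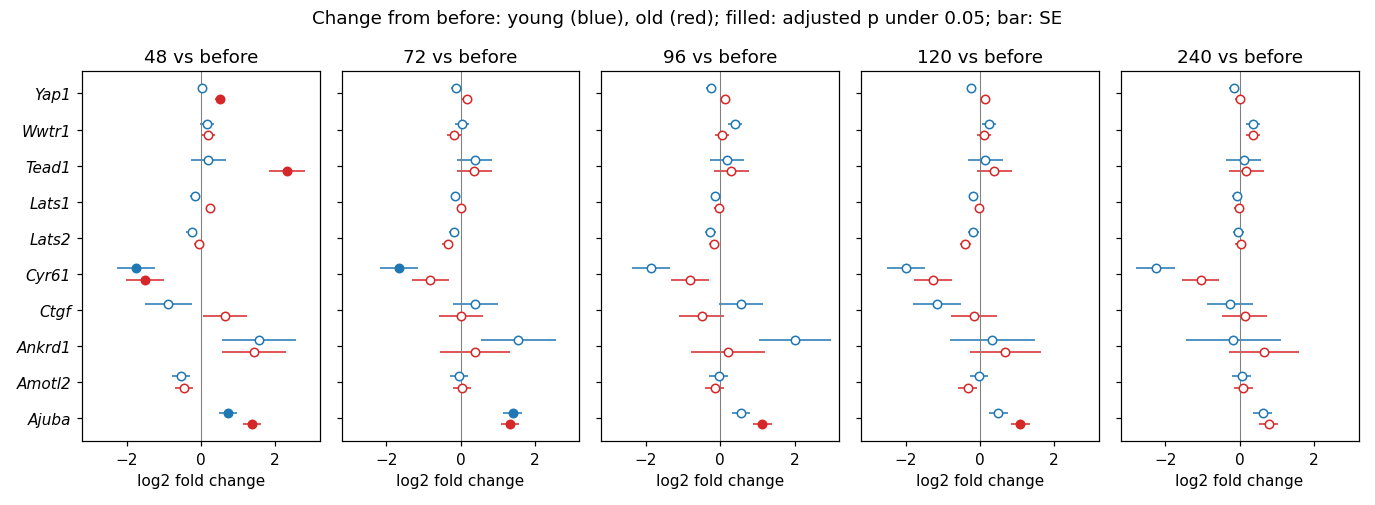
Log2 fold change of each of the 10 genes against before, 1 panel for each later time point, young in blue and old in red; bars are SE and filled points have an adjusted p under 0.05. Filled points are Ajuba and Cyr61 in young livers at 48 and 72, Ajuba, Cyr61, Tead1 and Yap1 in old livers at 48, and Ajuba in old livers at 72, 96 and 120.

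Yap1 encodes YAP, the coactivator that the pathway restrains. Its gene lies at chr9:7931999-8004638 (GRCm38). The old livers had 138, 157 and 145 CPM before and 212.5, 236 and 179 CPM at 48. All 3 old libraries at 48 were above all 3 from before, and the rise was 0.51 ± 0.13 (SE) on the log2 scale (adjusted p = 0.00441). In young livers the level was 176, 172 and 156 CPM before and 156, 151 and 213 CPM at 48. These groups overlapped, and the change of 0.04 ± 0.13 was within its error (adjusted p = 0.841). By 72 the old libraries were at 169, 156 and 172 CPM, next to the level before, and the change of 0.17 ± 0.13 was not called (adjusted p = 0.39). Over the 12 groups the mean ranged from 141 ± 10.6 CPM (SD, n = 3) in young livers at 96 to 209 ± 28.5 CPM in old livers at 48. The rise in old livers was not called when only the old libraries from before and at 48 were fitted (adjusted p = 0.143), and was 0.44 ± 0.13 without the old library at 48 that stands apart for Tead1 (adjusted p = 0.0216).

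Wwtr1, the gene for TAZ, at chr3:57455644-57575910, was not called in any comparison. Its group means lay between 51.2 ± 7.42 CPM in old livers at 72 and 74.6 ± 13.6 CPM in old livers at 240. The largest change was in young livers at 96, where the libraries had 71.1, 71.1 and 68.6 CPM against 50.6, 43.0 and 65.1 CPM before. The 3 libraries at 96 were above all 3 from before, with a change of 0.41 ± 0.19 that did not pass over all genes (adjusted p = 0.287). Both coactivators therefore had RNA levels that stayed within 1.48-fold (Yap1) and 1.46-fold (Wwtr1) between the lowest and the highest group mean.

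Tead1 encodes a DNA-binding protein through which YAP and TAZ act, and lies at chr7:112679356-112906784. In old livers its level was 39.4, 57.9 and 66.9 CPM before and 81.8, 676 and 67.3 CPM at 48. A single library, replicate 2 of the old mice at 48, thus held 6.73 times the level of the next library, and the other 35 libraries ranged from 39.4 to 100.5 CPM. The value rested on 3338 counts and not on low depth. In the fit of all libraries the rise in old livers at 48 was 2.33 ± 0.48 (adjusted p = 0.00106) and the excess of old over young at 48 was 2.26 ± 0.48 (adjusted p = 0.00233). Without that library the changes were 0.47 ± 0.23 (adjusted p = 0.162) and 0.36 ± 0.23 (adjusted p = 0.461), and neither was called. Young libraries had 43.9, 54.7 and 51.6 CPM before and 68.5, 55.6 and 48.0 CPM at 48, with a change of 0.20 ± 0.47 (adjusted p = 0.804). All groups share 1 estimate of the spread of a gene. The SE of this and every other Tead1 change in the fit of all libraries thus includes the library at 676 CPM.

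The library with the high Tead1 level was also extreme in several marker sums. Its summed hepatocyte, Kupffer cell, lymphocyte and cell-cycle markers were the lowest of all 36 libraries, at 36200, 121, 0.81 and 19.6 CPM. Its summed cholangiocyte markers were the second highest, at 230 CPM. Its 24 genes at 5 times or more the level of every other library (at least 10 CPM) were within the 0 to 33 such genes of the other libraries. The listed markers were compared with the 3 old libraries from before regeneration. Of these markers, 5 of 6 Kupffer cell genes and 5 of 8 hepatocyte genes were below all 3, and 2 of 8 cholangiocyte genes were above all 3. Parva, the nearest gene upstream of Tead1, was at 199 CPM in this library and 140 to 207 CPM in the others, and Rassf10 on the other side was at 1.22 CPM against 0 to 2.18 CPM. Micalcl, which lies beyond Parva, was at 6.28 CPM, above the 0 to 2.59 CPM of the other libraries. The part of these features in the Tead1 level was not tested.

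Lats1 and Lats2 encode the kinases that phosphorylate YAP and TAZ, at chr10:7681200-7716461 and chr14:57689662-57746212. Neither was called in any comparison. Lats1 ranged from 123 to 198.5 CPM over all libraries, with the highest group mean in old livers at 48 (167 ± 27.3 CPM). There the libraries had 154.5, 198.5 and 148.5 CPM against 152, 141 and 129 CPM before, which overlapped, and the change of 0.25 ± 0.12 was not called (adjusted p = 0.122). The highest of these values again belonged to replicate 2. Lats2, which is itself a known YAP target as well as a kinase, ranged from 45.8 to 85.7 CPM. Its libraries in old livers had 62.7, 76.8 and 80.3 CPM before and 45.8, 59.8 and 61.6 CPM at 120. These groups did not overlap, but the change of -0.39 ± 0.14 did not pass (adjusted p = 0.117).

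Ajuba was the member whose change was called most often. It encodes a LIM-domain adaptor that binds LATS kinases and restrains them, and it is counted among YAP-responsive genes. It lies at chr14:54567469-54577661, next to the promoter printed above with its 2 CATTCC matches. Young livers had 13.9, 15.4 and 24.9 CPM before, 26.5, 25.6 and 37.9 CPM at 48, and 52.8, 56.1 and 34.1 CPM at 72. Every library at 48 and at 72 was above every library from before. The rise in young livers was 0.73 ± 0.25 at 48 (adjusted p = 0.0368) and 1.40 ± 0.25 at 72 (adjusted p = 0.000485). By 96 young libraries were at 27.0, 23.9 and 29.0 CPM, which overlapped the level before, and the change of 0.56 ± 0.25 was not called (adjusted p = 0.278).

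Old livers held Ajuba at 15.97, 17.6 and 16.4 CPM before and at 48.0, 39.3 and 43.2 CPM at 48. At 72 they held 39.0, 26.9 and 60.1 CPM, and at 96 they held 34.8, 42.0 and 32.9 CPM. The 3 libraries from before were the tightest group of this gene, and every later old library was above all 3. At 120 the old libraries had 33.5, 28.8 and 43.8 CPM, and at 240 they had 32.5, 26.2 and 27.4 CPM. The rise was 1.38 ± 0.25 at 48 (adjusted p = 0.00032), 1.33 ± 0.25 at 72 (adjusted p = 0.000903), 1.14 ± 0.25 at 96 (adjusted p = 0.0067) and 1.09 ± 0.25 at 120 (adjusted p = 0.0143). At 240 the change of 0.79 ± 0.25 was not called (adjusted p = 0.325). The ages did not differ by the test at any time point. At 48, where old libraries were all above young ones, the difference was 0.54 ± 0.24 (adjusted p = 0.159), and the age by time interaction over all 5 contrasts was not called (adjusted p = 0.566).

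Of these 6 Ajuba calls, 4 were kept in all 45 alternative fits. The rise in young livers at 48 was lost without replicate 1 or replicate 2 of the young libraries from before, without replicate 3 of the young libraries at 48, and without the 12 libraries with Y-linked RNA (0.39 ± 0.22, adjusted p = 0.297). The rise in old livers at 120 was lost without replicate 3 of the old libraries from before or replicate 3 at 120, with an adjusted p of 0.0801 at most.

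Cell-cycle genes rose over the same time points as Ajuba. At 48, the summed level of 6 cell-cycle genes (Bub1, Ccna2, Ccnb1, Cdk1, Mki67 and Top2a) lay between 1779 and 3502 CPM for young mice and between 19.6 and 696 CPM for old mice. Young livers then had 25.6 to 37.9 CPM of Ajuba and old livers 39.3 to 48.0 CPM. This difference in Ajuba was not called (adjusted p = 0.159). The lowest cell-cycle sum, 19.6 CPM, belonged to replicate 2 of the old mice at 48, which stands apart for Tead1. The part of the cell cycle in the rise of Ajuba was not tested. Over the 36 libraries, Pearson's r of Ajuba on the log2(CPM + 1) scale was 0.57 with the cell-cycle sum and -0.62 with the summed endothelial markers. These values describe libraries that share time points and are not a test.

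Cyr61 was the member that fell. It encodes a secreted matrix protein and is among the most used readouts of YAP activity, and it also belongs to the genes that cells switch on within minutes of a stimulus. It lies at chr3:145646971-145649985. Young livers had 30.6, 136 and 115 CPM before, 33.8, 24.3 and 25.1 CPM at 48, and 21.8, 39.1 and 28.5 CPM at 72. Before regeneration 2 libraries were high and replicate 1 was within the range of later time points, so the groups overlapped. The fall in young livers was 1.75 on the log2 scale at 48 (SE 0.51, adjusted p = 0.0129), and the change at 72 was -1.66 ± 0.51 (adjusted p = 0.0233). At 96, 120 and 240 young libraries had 7.49 to 35.0 CPM, and no change was called. It was -1.87 ± 0.51 at 96 (adjusted p = 0.0571) and -2.25 ± 0.52 at 240 (adjusted p = 0.065), larger in size than at 48, with the value at 120 between them (adjusted p = 0.0666). The adjusted p also depends on how many other genes change at a time point.

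In old livers Cyr61 was at 19.7, 63.0 and 84.4 CPM before and at 22.4, 12.2 and 24.3 CPM at 48. Replicate 1 from before was again low, and lay between the libraries at 48. The fall at 48 had a change of -1.50 ± 0.51 (adjusted p = 0.0326). Later old groups had means between 22.8 ± 8.32 CPM at 120 and 31.8 ± 8.55 CPM at 72, with changes of -0.81 to -1.27 that were not called. The ages did not differ by the test before regeneration (93.9 ± 55.8 CPM young and 55.7 ± 33.0 CPM old, difference -0.75 ± 0.49, adjusted p = 0.841).

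The Cyr61 calls depended on single libraries. The fall in young livers at 48 was lost in 2 of 45 alternatives, without replicate 2 from before or replicate 3 at 48 (adjusted p of 0.0798 at most). At 72 it was lost in 4, without replicate 2 or 3 from before or replicate 1 or 3 at 72 (at most 0.116). In old livers at 48 it was lost in 6, without replicate 2 or 3 from before, without replicate 1 or 2 at 48, with the replicate number as a block, and when only the old libraries from before and at 48 were fitted (at most 0.2). Leaving out the libraries with Y-linked RNA, which include replicate 1 from before at both ages, made the falls larger. They were then called in young livers at 96 (-2.60 ± 0.53, adjusted p = 0.0349), 120 (-2.51 ± 0.53, adjusted p = 0.0424) and 240 (-3.11 ± 0.55, adjusted p = 0.0191), and in old livers at 120 (-2.01 ± 0.54, adjusted p = 0.0316).

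Immediate early genes, the first to respond to a stimulus, moved with Cyr61. The summed level of 8 of them was 747, 2250 and 2277 CPM in young and 652, 779 and 1847 CPM in old livers before regeneration, and 144.5 to 833 CPM in all later libraries. The library with the lowest sum from before was replicate 1 at both ages, which was also the lowest for Cyr61. In young livers 7 of the 8 were called lower at 48, including Fos, Jun and Egr1, 6 at 72 and 7 at 96. In old livers at 48, 3 were called lower (Fos, Fosb and Jun) and 1 higher (Ier3). Over the 36 libraries r between Cyr61 and this sum was 0.64. The part of these genes' common behaviour in the fall of Cyr61 was not tested.

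**Figure D3:**
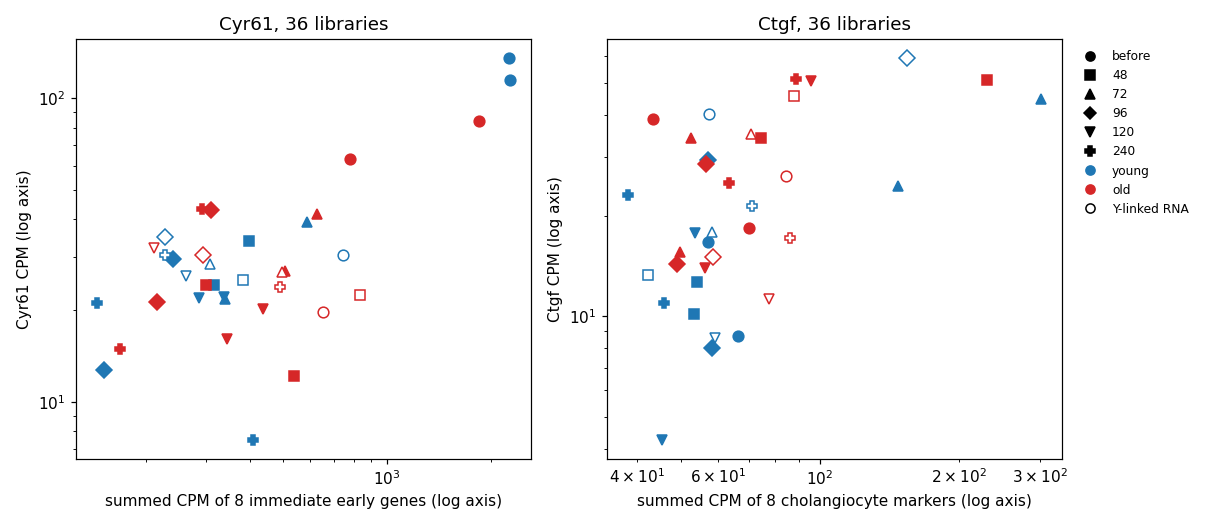
Left, Cyr61 level against the summed level of 8 immediate early genes; right, Ctgf level against the summed level of 8 cholangiocyte markers; all axes are CPM on log scales, each point is 1 of 36 libraries, with shape for time point, blue for young, red for old and open symbols for libraries with Y-linked RNA. The libraries from before with the highest Cyr61, 136 and 115 CPM, are also those with the highest immediate early sums, 2250 and 2277 CPM.

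Ctgf encodes a secreted matrix protein of the same family as Cyr61 and is the other standard YAP readout, at chr10:24595442-24598683. It did not follow Cyr61. Young livers had 40.4, 16.7 and 8.72 CPM before and 10.1, 12.7 and 13.3 CPM at 48, which overlapped (change -0.88 ± 0.63, adjusted p = 0.345). Old livers had 26.3, 18.3 and 39.0 CPM before and 45.6, 50.8 and 34.2 CPM at 48 (change 0.64 ± 0.59, adjusted p = 0.448). At 48, therefore, all 3 old libraries were above all 3 young ones. The difference of 1.86 ± 0.63 narrowly missed the threshold (adjusted p = 0.0518), DESeq2 called it (adjusted p = 0.0223), and it was 1.72 ± 0.68 without replicate 2 of the old mice at 48 (adjusted p = 0.162). The largest spread was in young livers at 96, with 29.3, 59.3 and 8.02 CPM.

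Cholangiocytes, the bile duct cells, are among the liver cells known to make Ctgf. At 48 the summed level of their 8 markers was 42.4 to 54.1 CPM for young mice and 74.2 to 230 CPM for old mice. Of the 4 markers that passed the filter, only 1 (Spp1) was called higher in old livers at 48. Over the 36 libraries r between Ctgf and the cholangiocyte sum was 0.54. The r between Ctgf and the sum of 10 stellate cell markers was 0.30. The part of bile duct cells in the Ctgf difference was not tested.

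Ankrd1, a muscle-enriched nuclear protein gene that YAP is known to switch on in many cultured cells, at chr19:36111965-36119844, was close to the limit of detection. Its counts were 0 to 20 per library, and only 17 of 36 libraries had more than 3. It was at 0 in 1 young library from before, 1 young library at 48 and 1 old library at 96, where 3 counts would have been 0.726, 0.739 and 1.29 CPM. The highest library, replicate 2 of the young mice at 96, had 3.80 CPM. No change was called, and the largest, 2.01 ± 0.96 in young livers at 96, did not pass (adjusted p = 0.308). In replicate 1 of the young mice at 120, where striated muscle markers summed to 998 CPM, it was at 0.584 CPM. Its r with the cholangiocyte sum over the 36 libraries was 0.63. The SE of its changes against before was 0.86 to 1.27 on the log2 scale.

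Amotl2 encodes an angiomotin, a junction protein that can hold YAP outside the nucleus and is itself a known YAP target, at chr9:102717091-102733418. In young livers it was at 69.7, 69.6 and 59.3 CPM before and at 49.8, 47.1 and 40.4 CPM at 48. All 3 libraries at 48 were below all 3 from before, with a change of -0.53 ± 0.25 that was not called (adjusted p = 0.134). It was called when only the young libraries from before and at 48 were fitted (-0.52 ± 0.15, adjusted p = 0.0256). In old livers it was at 46.7, 78.4 and 97.2 CPM before and at 70.5, 25.9 and 65.7 CPM at 48, which overlapped (change -0.46 ± 0.25, adjusted p = 0.18). Without the libraries with Y-linked RNA this change was -0.93 ± 0.29 and was called (adjusted p = 0.0344). The old libraries left in that fit were those at 78.4 and 97.2 CPM before and at 25.9 and 65.7 CPM at 48. The lowest value of the gene in any library was 25.9 CPM, in replicate 2 of the old mice at 48, where Tead1 was highest. By 72 both ages were back at the level before, with changes of -0.04 ± 0.25 and 0.03 ± 0.25.

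The 5 target genes thus did not move as a block. Over the 12 group means of log2(CPM + 1), r was -0.04 between Cyr61 and Ctgf and -0.59 between Cyr61 and Ajuba. It was 0.65 between Ctgf and Ankrd1, and Ankrd1 was close to the limit of detection. Among the upstream members, Yap1 and Lats1 had r = 0.76, and Yap1 and Tead1 had r = 0.79. The last value includes the old group at 48 with its single high library. Groups share the scaling and the depth of their libraries, and these values are descriptions without a test.

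Old and young livers differed in 1 of 60 tests of members at single time points, which was Tead1 at 48. At 48, edgeR called 1 of 10 members and 11.4% of all genes, and DESeq2 called 2 members. At an unadjusted p under 0.05, 5 of 10 members passed (Ajuba, Ctgf, Lats1, Tead1 and Yap1), as did 25.2% of all genes. All 5 were higher in old livers, and the median difference of the members at 48 was 0.28. Among all genes the median was 0.015, with 605 called higher and 925 lower in old livers at 48. Of the old libraries at 48, replicate 2, which stands apart for Tead1, was the highest for Ctgf, Lats1, Tead1 and Yap1. It was the lowest for Ajuba. Yap1 differed there by 0.27 ± 0.13 (adjusted p = 0.17), and by 0.43 ± 0.13 without replicate 3 of the young mice at 48, when it was called (adjusted p = 0.032). Before regeneration, 0 members were called by edgeR and by DESeq2 and 0 passed at an unadjusted p under 0.05, with 0.0595% of all genes called and 7.09% passing unadjusted. The same 3 counts were 0 at 72, 96 and 240, where 0%, 0.402% and 0.0149% of all genes were called and 4.97%, 13.4% and 5% passed unadjusted. At 120, edgeR and DESeq2 called 0 and 1 passed unadjusted (Ctgf, 1.34 ± 0.65, adjusted p = 0.492), with 0.0819% of all genes called and 10% passing unadjusted.

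**Figure D4:**
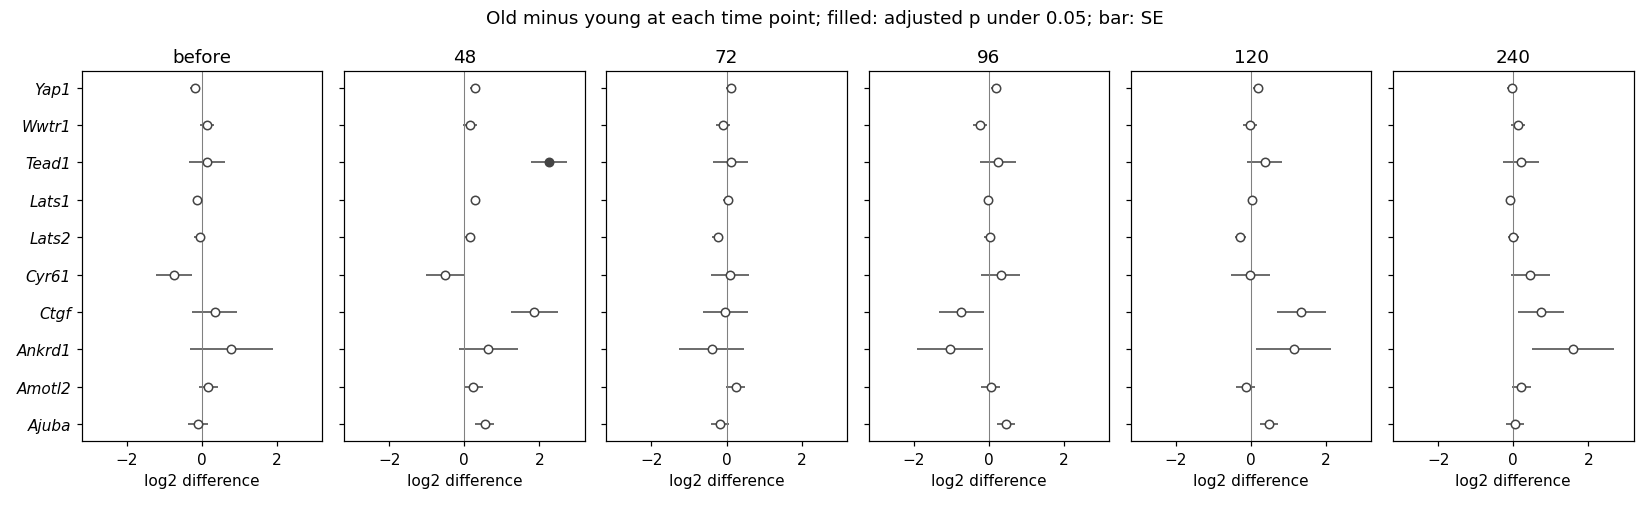
Difference of old minus young in log2 units for each of the 10 genes, 1 panel for each time point label; bars are SE and the filled point has an adjusted p under 0.05. The filled point is Tead1 at 48 (2.26), which rested on 1 library, and Ctgf at 48 (1.86) lies just short of the threshold.

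Averaged over the 6 time points, edgeR called 0 members, where 6.13% of all genes were called (old livers higher for 3.45% and lower for 2.69%). At an unadjusted p under 0.05, 20.5% of all genes passed and 2 members did, Ctgf (0.59 ± 0.25, adjusted p = 0.175) and Tead1 (0.55 ± 0.19, adjusted p = 0.0843). DESeq2 called 1, Tead1 (adjusted p = 0.0439). The joint test of age against time, over all 5 later time points, called 0 members by edgeR and by DESeq2 and 2.91% of all genes, and 1 member (Tead1, adjusted p = 0.233) and 14.4% of all genes passed unadjusted. For the change at 48 alone, edgeR called 0 members and 1.34% of all genes. Unadjusted, 16.1% of all genes passed and 3 members did, Tead1 (2.13 ± 0.67, adjusted p = 0.0888), Yap1 (0.47 ± 0.18, adjusted p = 0.17) and Lats1 (0.41 ± 0.17, adjusted p = 0.2). DESeq2 called Tead1 (adjusted p = 0.0338). The rise of Yap1 in old livers at 48 is therefore not shown to differ from the change in young livers.

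A further 41 genes of the pathway, of which 37 passed the filter, were read from a list of core kinases and adaptors, upstream regulators, TEAD partners and other YAP targets. Calls were counted at each time point, so a gene called at several time points is counted at each of them. In young livers 1 was called higher and 6 lower at 48, 3 higher and 6 lower at 72, and 1 higher at 96. In old livers 2 were called higher and 3 lower at 48, 1 higher and 5 lower at 72, 2 lower at 96 and 4 lower at 120. In young livers at 120 and 240 edgeR called 0 of the 37, 6 and 3 passed at an unadjusted p under 0.05, and DESeq2 called 1 and 0. In old livers at 240 edgeR called 0, 2 passed unadjusted, and DESeq2 called 1. These counts stand beside the shares of all genes given above for each time point.

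Map4k4, a kinase that acts beside the STK3 and STK4 kinases on LATS, had the largest rise. It was at 18.1 ± 0.62 CPM (SD, n = 3) before and 92.8 ± 32.1 CPM at 48 in young livers, a change of 2.36 ± 0.40 (SE, adjusted p = 6.71e-05), and 1.75 ± 0.39 at 72. In old livers it went from 25.8 ± 1.26 to 55.4 ± 27.2 CPM at 48 (1.101 ± 0.38, adjusted p = 0.0354) and 69.7 ± 25.5 CPM at 72 (1.43 ± 0.38, adjusted p = 0.0142). The change at 48 in old livers was lost in 5 of 45 alternatives, among them without replicate 2 at 48, and the one at 72 in 2. Wwc1, an upstream activator of LATS, rose in young livers at 72 (24.3 ± 1.81 to 43.6 ± 11.8 CPM, a change of 0.84 ± 0.26, adjusted p = 0.0242), which 5 of 45 alternatives lost, among them the fit without the libraries with Y-linked RNA. Sav1, the scaffold of the core kinases, was called higher in old livers at 48 (0.81 ± 0.24, adjusted p = 0.0136), but not without replicate 2 at 48 (adjusted p of 0.329 at most over the alternatives). Mob1b, another gene of the core list, was called lower in young livers at 48 and at 72. Both calls were kept in all 45 alternatives (adjusted p of 0.0489 and 0.0224 at most).

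Among TEAD partners, Vgll4, which competes with YAP for TEAD, fell in young livers from 28.9 ± 3.87 to 15.3 ± 2.59 CPM at 48 (-0.93 ± 0.20, adjusted p = 0.001). It fell in old livers from 21.6 ± 2.10 to 10.6 ± 0.58 CPM at 48 (-1.02 ± 0.20, adjusted p = 0.000755). Fat4, a large cadherin upstream of the pathway, fell at 48 at both ages (-0.68 ± 0.21 young and -0.94 ± 0.21 old). The fall of Fat4 in young livers was lost without the libraries with Y-linked RNA and in 2 other alternatives. Averaged over the time points, Vgll4 (-0.33 ± 0.08, adjusted p = 0.0124) and Fat4 (-0.40 ± 0.09, adjusted p = 0.00481) were lower in old than in young livers, while Wwc1 was higher (0.37 ± 0.11, adjusted p = 0.0316). The average differences of Vgll4 and Wwc1 were not called without the libraries with Y-linked RNA (adjusted p = 0.107 and 0.255).

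Of the 14 other YAP targets that passed the filter, 3 were called lower in young livers at 48, where 9.88% of all genes were. At 72, 4 were lower and 1 higher, where 8.23% and 9.26% of all genes were. At 96, 1 was higher, and 1.44% of all genes were called in either direction. In old livers 1, 4, 2 and 4 were called lower at 48, 72, 96 and 120. The shares of all genes called lower there were 12.1%, 5.92%, 3.08% and 2.08%. The targets' median log2 fold changes in young livers at 48, 72, 96, 120 and 240 were -0.04, -0.09, -0.09, 0.08 and 0.13. In old livers these medians were -0.32, -0.46, -0.33, -0.31 and -0.05. The median of all genes at 72 was 0.01 in young and -0.01 in old livers. Igfbp3, a binding protein for insulin-like growth factors, fell in young livers from 40.6 ± 7.89 to 10.7 ± 4.31 CPM at 48 (-1.93 ± 0.41, adjusted p = 0.000891). In old livers it fell from 57.5 ± 12.5 to 10.9 ± 2.82 CPM at 72 (-2.39 ± 0.41, adjusted p = 0.000436) and was still called lower at 96 and 120 (-2.02 and -1.40). The groups at 240 had 57.4 ± 13.6 CPM (young) and 57.4 ± 16.1 CPM (old). Gadd45a, a stress-responsive gene, was at 84.5 ± 42.8 CPM before and 13.3 ± 3.56 CPM at 48 in young livers (-2.66 ± 0.65, adjusted p = 0.00321), and was called lower in old livers at 96 and 120 (-2.40 and -2.37). F3, the gene for tissue factor, was called lower at 72 at both ages (-0.98 young and -1.17 old) and at 120 in old livers (-1.15 ± 0.29). Averaged over the time points F3 was lower in old than in young livers (-0.51 ± 0.11, adjusted p = 0.00623), except without the libraries with Y-linked RNA (adjusted p = 0.115), and Ccdc80 was lower as well (-0.40 ± 0.12, adjusted p = 0.0376), which 18 of 44 alternatives lost. The calls of Gadd45a in old livers and of F3 in young livers were each lost in 4 to 5 of 45 alternatives, and those of Igfbp3 and F3 at 120 in old livers in 6 and 7. At single time points, old exceeded young for Igfbp3 at 48 (1.23 ± 0.41, adjusted p = 0.0481) and fell short for F3 at 120 (-1.44 ± 0.28, adjusted p = 0.0447), which 29 and 34 of 45 alternatives lost. Rbms3, an RNA-binding protein gene, was called lower in old livers at 72 (-0.84 ± 0.28, adjusted p = 0.0484) and kept in 13 of 45. Ccdc80, a matrix protein gene, rose in young livers at 72 (1.53 ± 0.29, 41.3 ± 4.17 to 120 ± 56.4 CPM) and at 96 (1.48 ± 0.29). Of 10 stellate markers, 3 were also called higher in young livers at 72 (Col1a1, Col3a1 and Pdgfrb) and 2 at 96 (Col1a1 and Col3a1). The other stellate markers were not called there, and the part of these genes in the rise of Ccdc80 was not tested.

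**Figure D5:**
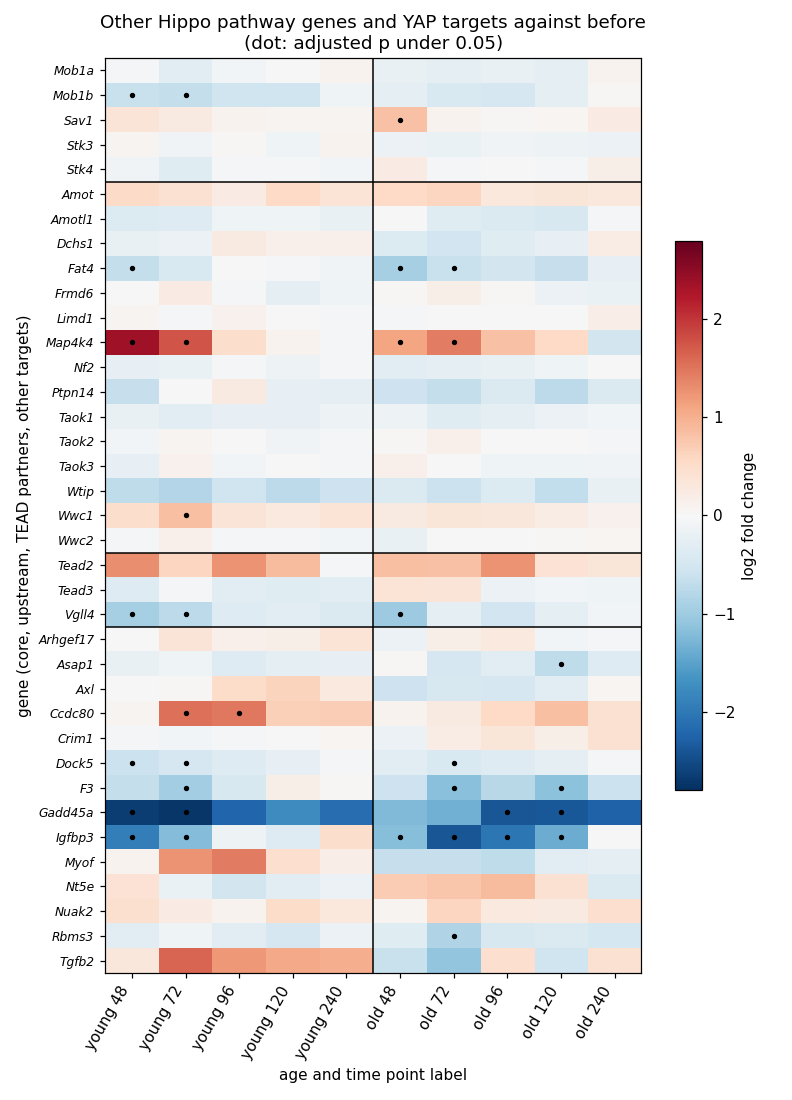
Log2 fold change against before of the tested genes among 41 other Hippo pathway genes and YAP targets (rows, by list) at each age and later time point (columns, with young to the left of the line); colour gives the change and a dot an adjusted p under 0.05. Dots are most frequent at 48 and 72 and absent at 240, and Map4k4 has the highest called change (2.36).

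For each member, the most alike genes among all tested were taken by Pearson's r over the 12 group means of log2(CPM + 1). Cyr61 was most like Fos (r = 0.93) and Nr0b2 (0.92). Ajuba was most like Nnat (0.96) and Trmt12 (0.96). Yap1 was most like Adpgk (0.97) and Mrpl17 (0.95), and Wwtr1 was most like Nudt3 (0.87) and Kcnk13 (0.83). For Tead1 these genes were Cntnap1 (0.97) and Hilpda (0.96), and Hilpda was also among the 24 genes at 5 times or more every other library in replicate 2 of the old mice at 48. Lats1 was most like Aff4 (0.94) and Atrn (0.94), and Lats2 was most like Ryk (0.89) and Kif13a (0.89). For Ctgf they were Large (0.87) and Hk1 (0.86), and for Amotl2 Rprd2 (0.93) and Hdac5 (0.91). Ankrd1, which was close to the limit of detection, was most like Trappc2l (0.93) and Mapkbp1 (0.93). These values are descriptions over 12 points, chosen as the highest among 13436 genes.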

How the data were processed

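RNA was measured in 36 mouse liver libraries, grouped by the age and time point in the sample labels. Per the submitters' processing notes, the tools named were bcl2fastq 2.20.0, Trimmomatic 0.39, STAR 2.7.5b, SAMtools 1.10 and featureCounts, with builds GRCm38 and mm10; the gene annotation and strand setting are not given in the sources used here. The authors deposited raw read counts by gene symbol without normalization, as 1 table per library. The labels describe ERCC spike-ins, but 0 rows of the tables are ERCC, and none were used for scaling.

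The test was that of edgeR 4.0.16, run in R 4.3.3 (TMM scaling, factors 0.93 to 1.133; filterByExpr on 12 groups; 1 quasi-likelihood fit of all libraries; common biological coefficient of variation 24.7%). The SE of a log2 fold change was its size divided by the square root of F. Benjamini-Hochberg adjustment ran over all 13436 genes in each comparison. The labels name the 3 libraries of a group as replicates, and p-values measure the spread between them. The script was tested on simulated data. Members and lists were chosen with earlier results of these data known.

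All 10 members were described. Of the other pathway genes, those with the largest called change and a mean of at least 1 CPM were named, up to 3 in each direction, with some others named for completeness after their values were seen. The 2 genes most alike to each member were taken by Pearson's r. Same-numbered libraries were not paired: of 198 pairs across groups, 89 had a correlation of deviations over 0.1, with a mean of 0.055. Alternatives were other scalings, no filter, DESeq2 1.42.0, a replicate block, a Y-linked covariate, fits of fewer libraries, and, added after seeing the data, a robust spread. Positions are from RefSeq on GRCm38.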

Additional observations from a re-analysis of the deposited data

How the results depend on the processing

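Direction was the same in every alternative for the 12 member tests and the 41 pathway gene tests that were called. In young livers 4 member tests were called, against 7 with DESeq2, 6 without the libraries with Y-linked RNA, 5 when only the 2 groups compared were fitted, and 1 to 7 over fits that each left out 1 library. In old livers 7 were called, against 4 when only the 2 groups compared were fitted, 9 without the libraries with Y-linked RNA, and 5 to 7 over fits that left out 1 library. Old against young at single time points gave 1, against 2 with DESeq2, 2 with a Y-linked covariate, 0 when only the 2 groups compared were fitted, and 0 to 2 without 1 library. The average over time points gave 0, against 1 with DESeq2 and 0 to 1 without 1 library. The interaction gave 0, with 0 to 1 without 1 library. With the replicate number as a block, which the data did not support as a pairing, old against young gave 2 calls and the fall of Cyr61 in old livers at 48 was lost; the cause was not tested. Total-count scaling moved the median of all genes by 0.21 in young livers at 72, by 0.13 at 96, by 0.10 at 120 and by 0.11 in old livers at 72 (log2), and lost no member's call. Depth limits Ankrd1, with 0 to 20 counts per library.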
